A study of Mus musculus with 8 samples.

Results

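Monocyte-directed progenitors of mouse bone marrow were taken here as the cells of a sorted progenitor compartment that carried several transcripts of the monocyte program. They were selected by a gate on 7 genes: at least 3 of F13a1, Ly86, Csf1r, Ccr2 and Irf8 with 1 or more unique transcript counts (UMIs), no UMI of Dntt, which marks lymphoid-primed cells, and fewer than 5 UMIs of Elane, a neutrophil granule gene, per 10000 UMIs of the cell. The gate held 280 of the 10046 kept cells, 2.79% of them. A kept cell had been assigned to 1 mouse by its hashtag antibody, had at most 5% of mitochondrial UMIs and had at least 700 detected genes. Because the gate uses measured transcripts, the levels of its 7 genes and the contrast between gated and other cells are given below as a description without a test.

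Monocytes arise from granulocyte and monocyte progenitors through stages that switch on Irf8 and then Klf4 and Zeb2, gain the receptors Csf1r and Ccr2, and lose Kit and Cd34 before the cells leave the marrow. Irf8, an interferon regulatory factor, is needed for the monocyte and dendritic cell branches and holds back the neutrophil branch. Type I interferon binds the receptor pair encoded by Ifnar1 and Ifnar2 and acts through a complex of transcription factors on the promoters of interferon-stimulated genes (ISGs), many of which carry the element that this complex binds.

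The study followed the response of hematopoietic stem and progenitor cells to 1 dose of interferon-α (IFNα) over time. Wild-type C57Bl/6 mice of 12 to 14 weeks were injected under the skin with recombinant mouse IFNα, 50000 IU for each 20 g of body weight, and were analysed 3, 24 or 72 h later, and control mice received 100 µl of PBS. From the marrow of 4 mice per time point, cells without lineage markers and with c-Kit on their surface (LK cells) were sorted, and LK cells with the phenotype CD150+ CD48- CD34- were added as extra stem cells. The cells of the 4 mice were tagged with separate hashtag antibodies and pooled into 1 single-cell 3′ RNA library per time point, so that time point, library and pool are the same grouping and their effects cannot be told apart. The lineage antibodies of the study include CD11b, CD11c and F4/80, which mark monocytes, dendritic cells and macrophages, and the cells counted here are those that passed this sort.

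Every mouse contributed cells to the gate. Among the control mice 27 of 827, 28 of 764, 30 of 825 and 2 of 58 kept cells passed. After 3 h the counts were 8 of 330, 7 of 366, 16 of 613 and 9 of 352, after 24 h they were 17 of 613, 30 of 1240, 10 of 693 and 26 of 916, and after 72 h they were 18 of 775, 21 of 489, 11 of 612 and 20 of 573. The share per mouse was thus 3.50% ± 0.186 (SD, n = 4) in the control and 2.38% ± 0.319, 2.37% ± 0.644 and 2.98% ± 1.13 after 3, 24 and 72 h. At 3 h and at 24 h each of the 4 mice lay below each control mouse, while at 72 h the mice lay on both sides of the controls. Exact 95% counting intervals of single mice overlapped, such as 2.47% to 5.15% in control mouse 3 and 0.694% to 2.64% in 24 h mouse 3. Control mouse 4, with 2 of 58 cells, had an interval of 0.420% to 11.9% and counts as 1 of the 4 mice in the SD. Over all kept cells Irf8, Csf1r, F13a1, Ccr2 and Elane made up less of the UMIs in each treated mouse than in each control mouse. Ly86 did so in each treated mouse except 3 h mouse 4. A share that falls can come from fewer monocyte-directed cells or from cells that drop out of the gate. Lower Elane can also bring cells into it. These cannot be told apart here, and a gate without Irf8 and Csf1r has the same limit. With a gate on at least 2 of F13a1, Ly86 and Ccr2 the mean share at 3 h was 0.632 of the control, against 0.678 with the 5 genes. With 4 of the 5 genes it was 0.429, with each cell thinned to 5000 UMIs 0.565, and of the cells without a UMI of the stem cell genes Hlf or Procr 0.818. The separation at 24 h held with at least 2 of 3 genes but not with 4 of 5, where 24 h mouse 1 (2.28%) lay above control mouse 3 (2.18%). The separation at 3 h held with at least 2 of 3 and with 4 of 5 genes, but not with thinned cells, where the control mice spread from 0 to 2.70%, nor among the cells without Hlf or Procr, where the shares were 3.13% to 5.12% in the control, 3.11% to 4.22% at 3 h and 2.63% to 4.03% at 24 h.

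**Figure D1:**
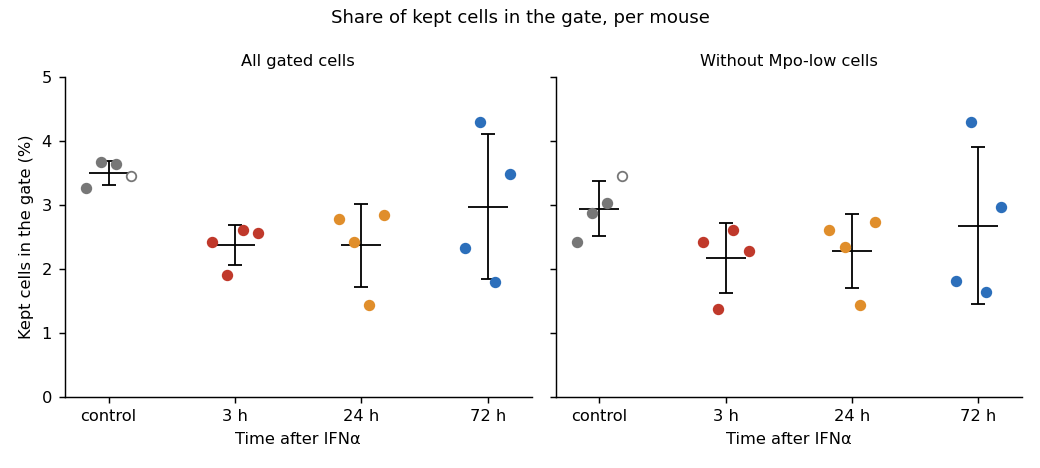
Share of kept cells in the gate (percent) for each mouse, for the whole gate on the left and without the 32 Mpo-low cells on the right. Points are mice, bars are the mean ± SD of 4 mice, and the open circle is the control mouse with 58 kept cells; in the whole gate the 3 h and 24 h mice sit between 1.44% and 2.84%, below the control mice at 3.26% to 3.66%.

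The gated cells were deep. Their median was 24213 UMIs per cell in the control and 19280, 30016 and 26432.5 in time order, against medians of 18964.5, 12017, 18953.5 and 14763 over all kept cells. No gated cell shared its barcode with a cell of another library. Summed per mouse, the gated cells gave between 100101 UMIs (3 h mouse 2, 7 cells) and 868895 UMIs (24 h mouse 2, 30 cells), so the 3 h sums are the least precise. Levels are given below as normalised counts per 1000000 UMIs (CPM) of these sums, for control mice 1 to 3 and 4 mice at each time point. The control mouse with 2 gated cells was left out of levels and tests. In such sums fewer cells of a type and less RNA per cell cannot be told apart, and intervals on shares cover counting error only.

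Of the 280 cells, 102 had exactly 3 of the 5 gate genes, 84 had 4 and 94 had all 5. Irf8 was detected in 98.9% of the cells, Ly86, a partner of the toll-like receptor homolog CD180, in 87.5%, the chemokine receptor Ccr2 in 74.3%, the coagulation factor subunit F13a1 in 73.9%, and Csf1r, the receptor for macrophage colony-stimulating factor, in 62.5%. At 3 h only 4 of 40 cells (10.0%) had all 5, against 32 of 87 (36.8%) in the control. Irf8 (chr8:120736358-120756694 in mm10, plus strand) stood at 666, 572 and 459 CPM in the 3 control mice and at 222, 527, 227 and 321 CPM at 3 h. The mean of Irf8 went from 566 ± 104 CPM (SD, n = 3) to 324 ± 143, 333 ± 62.8 and 415 ± 140 in time order (n = 4 each), so that all 24 h mice lay below all control mice but 1 of the 3 h mice did not. Csf1r had means of 54.6, 29.2, 35.3 and 53.8 CPM in the same order and F13a1 had 224, 137, 150 and 212 CPM. Ly86 varied less, with means of 252, 240, 201 and 193 CPM, and Ccr2 had 140, 102, 87.4 and 98.3 CPM. These levels cover all gated cells, also the separate kinds of cells described below, whose share differed between time points. Elane, which the gate limits, had means of 192, 114, 192 and 189 CPM, and Dntt had 0 CPM by the rule of the gate.

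The edges of the gate were gradual. The 150 cells with exactly 2 of the 5 genes, just outside, had 267 CPM of Ms4a6c and 12.3 CPM of Ly6c2. The 102 cells with exactly 3, just inside, had 501 and 44.9 CPM, and the 178 cells with 4 or 5 had 676 and 251 CPM. On the neutrophil side, 28 gated cells had 4 to under 5 Elane UMIs per 10000 and 23 cells outside had 5 to under 6, with Ly6c2 at 249 and 298 CPM. A further 85 cells passed on the monocyte genes but had a UMI of Dntt, and 997 had no Dntt and 5 or more Elane UMIs per 10000. These 997 are among the 2174 Elane-high progenitors used for comparison below.

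Genes that the gate did not use bear on the label, and some of the monocyte genes set for this check are given here. With every cell thinned to 5000 UMIs, Ms4a6c, a membrane protein of monocytes and macrophages, was detected in 90.0% of gated cells, against 59.1% of the 2174 cells with 5 or more Elane UMIs per 10000 (Elane-high progenitors), 42.3% of 684 Flt3 and Mpo positive progenitors and 2.67% of 1202 erythroid cells that served as the level of free RNA. The lysosomal protease gene Ctss was detected in 43.0%, 11.0%, 13.1% and 0.334% of these cells, and the fractalkine receptor gene Cx3cr1 in 12.2%, 4.25%, 0.442% and 2.01%. The median depths before thinning were 25365, 31086.5, 16196.5 and 20535 UMIs. Ly6c2, which encodes the surface antigen of classical monocytes, was detected in 36.2% of gated cells and in 66.9% of Elane-high progenitors. The cells also carried progenitor genes, with Mpo in 91.4%, Cd34 in 68.1%, Flt3 in 30.8% and Kit in 24.0%. The neutrophil gene S100a8 was detected in 0.717%, and so was Siglech of plasmacytoid dendritic cells. Only 3 of the 1202 erythroid cells (0.250%) passed the gate.

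Markers of the other cell types were summed over the gated cells of each mouse. The 26 listed monocyte genes outside the gate, led by Ms4a6c, had a summed level of 4740 ± 807 CPM in the control and 3515 ± 722, 3059 ± 216 and 3141 ± 603 CPM in time order. The 19 neutrophil genes, led by Prtn3, stood at 7455, 7388, 7972 and 7945 CPM, and the 11 erythroid markers, led by Car2, at 54.6, 82.9, 75.7 and 74.0 CPM. The 12 lymphoid markers, led by Nkg7, stood at 174, 125, 200 and 172 CPM, with Ebf1, Cd3e, Cd3g and Ms4a1 at 0. The 10 markers of mature macrophages summed to 5.65, 9.70, 2.15 and 2.66 CPM with C1qc, Cd5l and Marco at 0, the 7 stem cell markers to 53.1, 46.6, 47.3 and 76.3 CPM, the 7 megakaryocyte markers to 11.1, 2.21, 8.08 and 19.8 CPM, and the 9 markers of basophils, mast cells and eosinophils, with Fcer1a and Epx at 0, to 46.7, 22.5, 42.2 and 69.1 CPM. The dendritic list behaved otherwise. Its 19 genes, of which Cst3 gave 87.7% of the counts, summed to 3181 ± 795, 1962 ± 1266, 1558 ± 402 and 2085 ± 1323 CPM, and at 3 h the mice ranged from 875 to 3518 CPM.

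The spread among mice came with a separate kind of cell in the gate. In 19 cells (9, 3, 3 and 4 in the order of time points) the class II antigen presentation genes Cd74, H2-Aa, H2-Ab1 and H2-Eb1 together made up at least 14.5 UMIs per 10000, while the highest of the other 261 cells had 5.30. These class II-high cells had Cd74 at 15340 CPM, and Batf3, a transcription factor of dendritic cells, was detected in 19 of 19 of them and in none of the others. They led the genes by which the gated control cells as a whole differed from all other control cells, since Cd74, H2-Aa and H2-Eb1 were the first 3 genes by fold and 99.6% of the Cd74 UMIs of the gated control cells lay in them. A second kind, 8 cells with at least 3 UMIs of Lgals3 and without class II, had Lyz2 at 5195 CPM against 147 CPM in the remaining cells. In the remaining control cells Lyz2 had 163 CPM on pooled UMIs, beside a mean of 253 CPM in the control Elane-high progenitors. All 8 Lgals3-high cells came from control mice (5, 2 and 1 of control mice 1, 2 and 3), and 0 of 193 gated cells of treated mice were of this kind, which allows a share of up to 1.55%. Both kinds had little Mpo (35.1 CPM in the class II-high and 270 CPM in the Lgals3-high cells, against 2220 CPM in the remaining ones), the myeloperoxidase gene of granulocyte and monocyte progenitors.

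**Figure D2:**
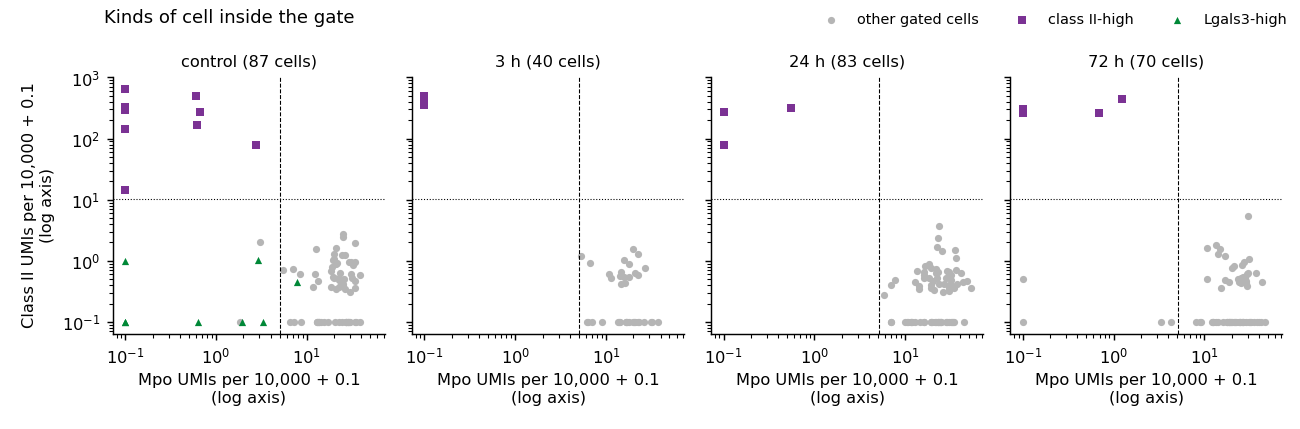
Each point is 1 of the 280 gated cells, in 1 panel per time point, by its Mpo UMIs (horizontal) and its UMIs of 4 class II genes (vertical) per 10000 UMIs, on log axes with 0.1 added; squares are class II-high and triangles Lgals3-high cells. The dotted line marks 10 class II UMIs and the dashed line 5 Mpo UMIs per 10000; the 19 class II-high cells stand at 14.5 or more with a gap down to 5.30, and all of them lie under the Mpo line.

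Because Lgals3 itself was lower in treated mice, a definition that does not use a gene that moved was added, namely gated cells with fewer than 5 Mpo UMIs per 10000. Mpo was not called at any time point. These Mpo-low cells numbered 32 (18, 3, 3 and 8) and made up 20.7% of the gated cells in the control and 7.50%, 3.61% and 11.4% in time order. They comprised the 19 class II-high cells, 7 of the 8 Lgals3-high cells and 6 others. They held 65.4% of the Lyz2 UMIs of the gated control cells, 64.8% of those of S100a4, 58.6% of those of Klf4, 53.2% of those of Ly6c2 and 0.544% of those of Mpo. Of the gate genes they held 44.4% of the control UMIs of Ccr2, 26.0% of Irf8, 18.8% of Csf1r, 18.7% of Ly86 and 17.8% of F13a1. The part of these cells in the lower levels of gate genes after treatment was not tested. All 3 definitions were chosen after the data were seen, and values without the Mpo-low cells are given beside the named results that change, except for the gate genes. Without the 32 Mpo-low cells the share of kept cells was 2.94% ± 0.425 in the control and 2.17% ± 0.552, 2.28% ± 0.582 and 2.68% ± 1.23 in time order, and each time point then overlapped with the control.

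Levels were compared between each time point and the control on the sums per mouse, over 6341 genes with enough counts, and a gene was called when its adjusted p was under 0.05 and its level changed more than 2-fold, a log2 fold change over 1 in size. Log2 fold changes come from the fit, while folds and shares of the control level are ratios of UMIs pooled over the mice of a group, each scaled by depth, which weight mice by their depth and can differ from the ratio of the means over mice. At 3 h 374 genes were called, 5.9% of those tested, 231 of them higher (3.64%) and 143 lower (2.26%). At 24 h 72 genes were called (1.14%), 33 of them higher (0.52%) and 39 lower (0.615%), and at 72 h 46 (0.725%), 28 higher (0.442%) and 18 lower (0.284%). Each treated mouse lay above each control mouse for 9.48%, 8.17% and 6.09% of the genes in time order, and below for 8.83%, 7.43% and 4.75%. The 3 comparisons share the same control mice. Without the Mpo-low cells there were 315 calls at 3 h, 65 at 24 h and 44 at 72 h, of which 289, 54 and 34 were among the genes called with them. With library size as the only scaling, the median over all genes moved from -0.03 to -0.13 on the log2 scale at 3 h, and the calls there were 194 higher and 194 lower. DESeq2 gave 221 and 89, and no filter on low counts 238 and 229.

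The largest group of called genes at 3 h was that of the ISGs. Of 70 listed ISGs 58 were tested and 51 rose, beside 3.64% of all tested genes, with a median log2 fold change of 3.12 against -0.03 over all genes, and none fell. As many of them were near 0 in the control, the 20 ISGs that were over the count limit in each control mouse were counted apart, and 14 of these rose. At 24 h 12 of the 58 rose (median 0.89), beside 0.52% of all tested genes, and at 72 h none was called in either direction (median -0.46). With the Mpo-low cells left out 49 rose at 3 h and 15 at 24 h, and at 72 h 1 was called lower.

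Isg15 (chr4:156199424-156200818, minus strand), a ubiquitin-like modifier, stood at 5.86, 25.5 and 10.5 CPM in the control mice and at 849, 1348, 919 and 1174 CPM at 3 h. The groups were far apart, with 73.1-fold more at 3 h (adjusted p = 3.08e-17). It then stood at 74.5, 75.5, 82.0 and 104 CPM at 24 h, still above each control mouse (6.10-fold, adjusted p = 1.14e-06), and at 10.6, 7.30, 0 and 5.25 CPM at 72 h, which overlapped with the control. Irf7, the interferon regulatory factor that amplifies type I interferon, followed the same order, from 4.39, 11.3 and 6.59 CPM in the control to 144, 497, 175 and 263 CPM at 3 h, 32.7, 39.5, 31.5 and 48.3 CPM at 24 h and 7.93, 0, 0 and 0 CPM at 72 h. Its log2 fold change was 4.99 ± 0.41 (SE) at 3 h and 2.37 ± 0.47 at 24 h, and at 72 h the 3 UMIs left gave a ratio of 0.226 to the control with a counting interval of 0.0422 to 0.790.

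The genes with the largest rises at 3 h were absent or nearly absent in the control. Cxcl10, a chemokine that draws T cells, had 0 UMIs in the gated control cells and 45.7, 294, 608 and 229 CPM at 3 h, which is at least 260-fold higher when the control is set at a floor of 3 UMIs over the group, on pooled UMIs. The 4 mice differed widely, all lay above the control, and without 3 h mouse 3 the bound was 128-fold. At 24 h Cxcl10 had 13 UMIs over the group, 3 without 24 h mouse 2 and 13 without 24 h mouse 3, and at 72 h none. Iigp1, a GTPase that attacks vacuoles of intracellular pathogens, was at least 91.0-fold higher, Ifit3, an effector against viral RNA, at least 79.5-fold, Pydc4 of the pyrin domain family at least 34.5-fold and the PYHIN gene Gm4955 at least 31.6-fold. Ifit3 was uneven, with 6.53, 335, 74.8 and 143 CPM in the 4 mice. Ifit1 rested on 1 control UMI (ratio 210, counting interval 36.5 to 8401), the interferon-inducible GTPase gene Gm4951 on 1 (ratio 121, 20.5 to 4881), and Rtp4, a chaperone of receptors, on 3 (ratio 113, 37.8 to 556). Gene models named Gm, and the Ifit and Ms4a families, include near copies, and counts between such copies are uncertain.

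The promoters of 4 of these ISGs and of Socs1, a feedback inhibitor, are shown because they hold the letters of the element that the interferon complex binds, and they were picked after their values were seen. Windows from 250 bases before to 50 after the start of each gene (RefSeq, GRCm38.p6) were searched on both strands for GAAANNGAAA, where N is any base. Capitals mark each match, and a match on the other strand reads as its reverse complement. Overlapping matches run together, and sequences are given in the direction of the gene.
Cxcl10, chr5:92349048-92349139, minus strand, 1 match: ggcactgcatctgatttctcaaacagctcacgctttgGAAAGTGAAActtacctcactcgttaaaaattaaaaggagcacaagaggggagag
Ifit3, chr19:34583362-34583461, plus strand, 2 matches: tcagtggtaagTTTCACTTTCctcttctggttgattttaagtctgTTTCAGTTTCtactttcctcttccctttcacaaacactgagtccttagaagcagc
Ifit1, chr19:34640759-34640858, plus strand, 2 matches: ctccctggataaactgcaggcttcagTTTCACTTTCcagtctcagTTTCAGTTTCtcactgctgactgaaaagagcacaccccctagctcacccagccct
Isg15, chr4:156200830-156200929, minus strand, 3 overlapping matches: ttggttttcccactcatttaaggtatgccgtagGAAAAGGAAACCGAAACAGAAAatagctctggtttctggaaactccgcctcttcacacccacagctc
Socs1, chr16:10785559-10785658, minus strand, 2 overlapping matches: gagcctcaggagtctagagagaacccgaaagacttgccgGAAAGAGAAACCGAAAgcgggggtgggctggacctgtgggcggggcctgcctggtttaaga

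The motif stood in the window of 936 of 27025 genes (3.46%) and of 177 of the 4954 tested genes with a promoter entry (3.57%). Among the genes called higher at 3 h it stood in 33 of 171 (19.3%), among the ISGs called higher in 18 of 39 (46.2%), and among the genes called lower in 4 of 118 (3.39%). At 24 h it stood in 2 of 24 genes called higher and at 72 h in 1 of 15. Only 171 of the 231, 39 of the 51, 118 of the 143, 24 of the 33 and 15 of the 28 called genes had an entry. The windows of Irf7, H2-Q7 and Casp4 held no match. A match is a description of the sequence and not a measured site.

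The receptor and its signaling chain were called in part, beside 3.64% of all tested genes called higher and 2.26% called lower at 3 h. Of 16 tested genes of this list 5 rose at 3 h, among them Irf1, Irf7, Socs1 and Usp18, and 1, the phosphatase gene Ptpn6, fell. The feedback inhibitors were among the risen genes. Usp18, which removes Isg15 and blocks the receptor, went from 5.08 ± 1.31 to 250 ± 69.2 CPM (46.3-fold) and was still 3.71-fold higher at 24 h (19.9 ± 6.73 CPM, adjusted p = 0.0123). Socs1, which inhibits JAK kinases, had 2.93, 8.49 and 2.64 CPM in the control, 19.6, 30.4, 49.9 and 40.1 CPM at 3 h (8.34-fold) and 6.33 ± 1.29 CPM at 24 h, where it was not called, and it had too few counts to be tested without the Mpo-low cells. Irf1 (2.11-fold at 3 h) was just over the limit and missed it without 3 h mouse 4 (log2 fold change 0.85), with library size alone (0.97), without the class II-high cells (0.94) and without the class II-high and Lgals3-high cells (0.997). It also missed the test with 4 of 5 gate genes and with the thinned gate (adjusted p up to 0.648). Usp18 at 24 h lost its call without control mouse 1 or 2 (adjusted p = 0.0548 and 0.0787).

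Of the receptor chains themselves, Ifnar2 passed the test but not the fold limit and Ifnar1 did not pass the test. Ifnar2 had 192, 132 and 157 CPM in the control, and 71.8, 81.1, 99.7 and 115 CPM at 3 h, 102, 105, 91.5 and 116 CPM at 24 h and 76.6, 102, 116 and 96.3 CPM at 72 h. All treated mice lay below all control mice, with pooled levels of 0.595, 0.665 and 0.608 of the control (adjusted p = 0.00913, 0.0181 and 0.00830). Ifnar1 had a mean of 25.7 CPM in the control and 7.54, 21.2 and 21.1 CPM afterwards, with adjusted p of 0.107, 0.687 and 0.845, and was called at 3 h without 3 h mouse 3 (log2 fold change -2.38, adjusted p = 0.0396). The receptor of interferon-γ fell at 3 h. Ifngr1 went from 92.2, 92.0 and 98.8 to 39.2, 30.4, 49.9 and 22.9 CPM (0.411 of the control, adjusted p = 0.000339), without overlap. Ifngr2 went from 62.5 ± 6.06 to 33.2 ± 20.5 CPM (adjusted p = 0.0344) and lost its call without control mouse 2 (adjusted p = 0.0890) or without 3 h mouse 1, 3 or 4 (0.0645, 0.165 and 0.134), and without the Mpo-low cells its log2 fold change was -0.98, under the limit.

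Among growth factor receptors Csf2rb was the one that rose at 3 h. It encodes the common β chain of the receptors for GM-CSF, interleukin 3 and interleukin 5. Its levels were 21.96, 17.0 and 17.1 CPM in the control, 91.4, 50.7, 90.4 and 68.7 CPM at 3 h (4.31-fold, adjusted p = 9.34e-05), 10.9, 29.3, 3.15 and 12.1 CPM at 24 h, and 21.1, 12.8, 24.7 and 14.0 CPM at 72 h. The 3 h mice thus stood apart from the control while those of 24 h and 72 h overlapped with it. Its partner Csf2ra, the α chain for GM-CSF, had means of 61.3, 25.7, 31.9 and 33.3 CPM over mice, pooled levels of 0.509, 0.544 and 0.547 of the control, and was not called. It was close to the limits, and passed both at each time without control mouse 3 (adjusted p = 0.00802, 0.00454 and 0.00962), at 3 h also without 3 h mouse 3 (0.0285), 24 h mouse 1 or 4 or 72 h mouse 2 or 4 (0.0438 to 0.0493) and at 24 h without 24 h mouse 4 (0.0308), and with the Mpo-low cells left out its log2 fold changes were -0.32, -0.30 and -0.49. Of 13 tested receptors, 1 was called higher (Csf2rb) and 2 lower (Ifngr1 and Ifngr2) at 3 h, and none later. Beside this stand 3.64% of all tested genes called higher and 2.26% called lower at 3 h.

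Ly6a (chr15:74994877-74998031, minus strand) encodes Sca-1, the antigen whose rise under interferon makes sorting of stem cells difficult. In the gated cells it had 5.86, 5.66 and 5.27 CPM in the control, 78.4, 162, 18.7 and 34.4 CPM at 3 h and 43.6, 51.9, 59.9 and 67.6 CPM at 24 h. It was 9.58-fold and 10.1-fold higher (adjusted p = 0.000119 and 2.31e-05), with a wide spread among the 3 h mice and little spread at 24 h. At 72 h it had 10.6, 3.65, 0 and 8.76 CPM and overlapped with the control. With cells thinned to 5000 UMIs it was detected in 2.30%, 25.6%, 15.7% and 4.29% of gated cells in time order, and without thinning in 12.6%, 50.0%, 57.8% and 12.9%. The erythroid cells had thinned shares of 0, 5.84%, 2.71% and 0.692% in time order, and the part of free RNA in the treated level was not tested.

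Sensors of nucleic acids and effectors of cell death had some called genes, to be read against the 3.64% of all tested genes that were called higher at 3 h. Of 8 tested pattern recognition receptors Ifih1, which encodes the RNA sensor MDA5, rose 9.41-fold and its relative Dhx58 8.62-fold at 3 h. In the inflammasome and pyroptosis list Casp4 (caspase-11) was the 1 called gene of 7. It had 4.39, 2.83 and 2.64 CPM in the control and 45.7, 40.6, 53.0 and 45.8 CPM at 3 h, a narrow and separate group (14.8-fold, adjusted p = 2.65e-06). At 24 h it had 10.9, 12.4, 6.31 and 16.9 CPM (3.92-fold, adjusted p = 0.0471), a call that was lost in 9 of the fits that left out 1 mouse (adjusted p = 0.0501 to 0.209), each control mouse among them, and without the Mpo-low cells (0.102). The log2 fold change of Casp4 at 24 h stayed between 1.63 and 2.10 in all alternatives, over the fold limit. Casp1 (47.2 CPM in the control, 54.6 at 3 h) and Gsdmd, the pore protein of pyroptosis (31.2 and 46.3 CPM), were not called. Of the necroptosis list 3 of 14 rose at 3 h, the nucleic acid sensor Zbp1 (23.7-fold), the death ligand Tnfsf10 (6.39-fold) and the chromatin protein Daxx (3.54-fold), while the kinase Ripk3 (46.9 to 34.8 CPM) and its substrate Mlkl (32.7 to 54.1 CPM) were not called. Tnfsf10 lost its call without control mouse 1 (adjusted p = 0.0516) or 3 h mouse 3 (0.0685). None of 6 genes of the BCL2 family was called at any time, Bcl2 having means of 209, 175, 178 and 178 CPM and Mcl1 140, 179, 101 and 133 CPM.

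**Figure D3:**
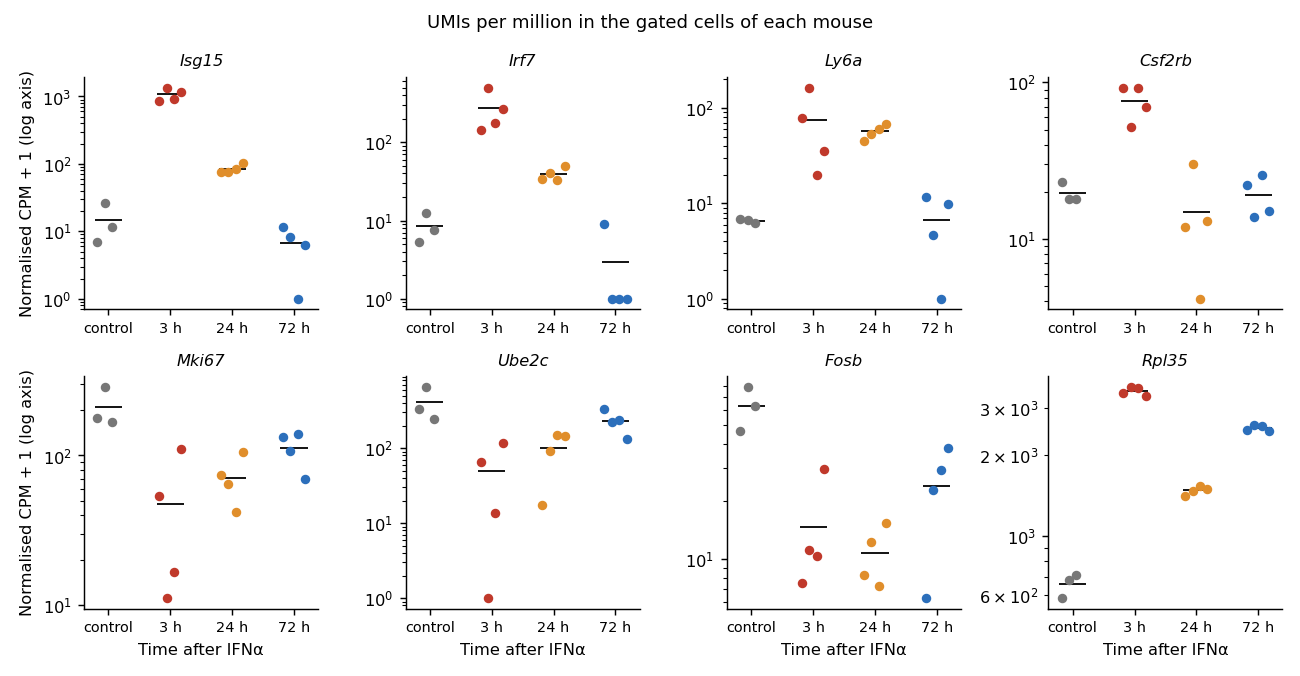
Normalised CPM + 1 on a log axis for 8 genes in the summed gated cells, with 1 point per mouse (3 control mice and 4 at each time point) and a line at the mean. Isg15, Irf7 and Ly6a are highest at 3 h or 24 h and overlap with the control at 72 h, Csf2rb is up at 3 h, Mki67, Ube2c and Fosb are lower at 3 h and 24 h, and Rpl35 is above the control at all 3 times, with 2467 to 2597 CPM at 72 h against 583 to 710 CPM in the control.

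Antigen presentation by class I had few called genes. Of 22 tested genes Nlrc5, the transactivator of class I, was the 1 call at 3 h, where 3.64% of all tested genes were called higher (6.98 ± 2.41 to 28.4 ± 8.90 CPM, 3.83-fold), and it lost it without control mouse 2 (adjusted p = 0.0874). At 24 h H2-Q7 and H2-Q6 of the Qa region rose, where 0.52% of all tested genes were called higher. H2-Q7 (chr17:35439155-35443773, plus strand) had 26.4, 32.6 and 38.2 CPM in the control, 52.7, 125, 59.9 and 139 CPM at 24 h (3.26-fold, adjusted p = 0.000279) and 71.3, 56.6, 77.5 and 103 CPM at 72 h (2.39-fold, adjusted p = 0.0144). All mice of both time points lay above the control, but the 72 h call was lost without control mouse 1 or 2 or 72 h mouse 4 (adjusted p = 0.104, 0.0634 and 0.139), and H2-Q6 at 24 h without control mouse 1 or 2 or 24 h mouse 4 (0.0824, 0.0979 and 0.0760). H2-K1, a classical heavy chain, stood at 572, 718 and 764 CPM in the control and 983, 1068, 949 and 1243 CPM at 24 h, higher in each mouse but 1.59-fold and so under the fold limit (adjusted p = 0.000776). At 3 h and 72 h it overlapped with the control.

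Cd74, the invariant chain, followed the class II-high cells. It had 906, 1060 and 837 CPM in the control, 0, 2028, 0 and 1660 CPM at 3 h, 116, 469, 18.9 and 378 CPM at 24 h and 2375, 0, 729 and 3.50 CPM at 72 h. The 3 h mice without a class II-high cell had none of its transcripts, and the differences were not called (adjusted p = 0.957, 0.384 and 0.951). The class II list of 8 tested genes had 1 called gene, the thiol reductase Ifi30, beside 2.26% and 0.615% of all tested genes called lower at 3 h and 24 h. Ifi30 was lower at 3 h (0.181 of the control) and 24 h (0.383) and was called in neither case without the Mpo-low cells (adjusted p = 0.0615 and 0.531). At 3 h its log2 fold change stayed at -1.27 or lower in all alternatives, over the fold limit, while at 24 h it ranged up to -0.40. The 24 h call of Ifi30 was also lost without control mouse 1 (0.0653) or 24 h mouse 4 (0.0544). Among 7 tested dendritic cell genes Runx2 was called lower at 3 h, and none was called later. The call of Runx2 was lost in 8 alternatives, that without the Mpo-low cells among them (log2 fold change -7.06 to -0.91 over all alternatives).

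Some genes of monocyte maturation fell in the treated mice, and their counts changed without the small separate kinds of cells. They are to be read against the 2.26%, 0.615% and 0.284% of all tested genes called lower in time order, and the 3.64% called higher at 3 h. Of 20 tested monocyte identity genes outside the gate, 1 rose (Ms4a6b) and 6 fell at 3 h (Ly6c2, Klf4, Lgals3, Psap, Lyz2 and Pld4; median log2 fold change -0.81), and 5 fell at 24 h and at 72 h (medians -0.66 and -0.78). Among the cells that were not Mpo-low 3, 1 and 1 of 19 were called lower (medians -0.42, -0.29 and -0.15), while without the class II-high cells alone 6, 4 and 8 of 20 were. Lgals3 at 3 h lost its call in 9 of the fits that left out 1 mouse (adjusted p = 0.0524 to 0.284). Lyz2, lysozyme, had 735, 320 and 331 CPM in the control and means of 145 ± 82.2, 130 ± 13.6 and 161 ± 20.2 CPM afterwards, with adjusted p between 2.02e-06 and 4.24e-05. Without the Mpo-low cells the log2 fold changes of Lyz2 were -0.42, -0.45 and -0.12 in place of -1.73, -1.80 and -1.52, and none was called. Ly6c2 had 335, 171 and 242 CPM in the control, 39.2, 162, 115 and 22.9 CPM at 3 h, 400, 182, 151 and 173 CPM at 24 h and 114, 80.3, 151 and 73.6 CPM at 72 h. It was called lower at 3 h and 72 h (adjusted p = 0.00485 and 0.0104), whereas without the Mpo-low cells its log2 fold changes were -0.62, 0.80 and -0.30 (adjusted p = 0.364, 0.0769 and 0.820). Without the class II-high and Lgals3-high cells the 24 h difference of Ly6c2 was 0.92 with an adjusted p of 0.0369, and 24 h mouse 1 was its highest mouse. The 72 h call of Ly6c2 was also lost without control mouse 1 (adjusted p = 0.124) or without 72 h mouse 2 or 4 (0.0614 and 0.0631).

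Klf4, Pld4 and S100a4, a named gene outside that list, were among the genes called lower at 3 h with and without these cells. Klf4 (chr4:55527143-55532466, minus strand), a transcription factor of monocyte differentiation, had 70.3, 36.8 and 31.6 CPM in the control and 6.53, 0, 0 and 0 CPM at 3 h, that is 98 UMIs against 1 (ratio 0.0293, counting interval 0.000735 to 0.167, adjusted p = 0.000316). Without the Mpo-low cells its log2 fold change at 3 h was -3.71 (adjusted p = 0.0213). At 24 h it had 1.82, 7.89, 22.1 and 10.9 CPM and at 72 h 15.9, 5.48, 17.6 and 3.50 CPM, below the control in each mouse. Without the Mpo-low cells the calls were lost (adjusted p = 0.0566 and 0.0871), that of 72 h also without control mouse 1 (0.0730). The log2 fold changes of Klf4 stayed over the fold limit in all alternatives, at -1.63 or lower at 24 h and -1.87 or lower at 72 h. S100a4, a calcium-binding protein of motile cells, went from 108, 73.6 and 68.5 CPM to 6.53, 10.14, 3.12 and 5.73 CPM at 3 h, 12.7, 13.5, 9.46 and 7.24 CPM at 24 h and 18.5, 5.48, 17.6 and 5.25 CPM at 72 h (0.0646, 0.131 and 0.122 of the control). Without the Mpo-low cells its log2 fold changes were -2.93, -1.77 and -2.37, all called, and without the class II-high and Lgals3-high cells that of 24 h was -1.31 (adjusted p = 0.0690). Pld4, a phospholipase-like exonuclease of endosomes, went from 92.2, 87.7 and 68.5 CPM to 13.1, 20.3, 28.05 and 22.9 CPM at 3 h and 25.4, 28.2, 9.46 and 26.6 CPM at 24 h (0.276 and 0.301 of the control), and without the Mpo-low cells its log2 fold changes were -1.38 and -1.77 (adjusted p = 0.00672 and 1.40e-05).

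**Figure D4:**
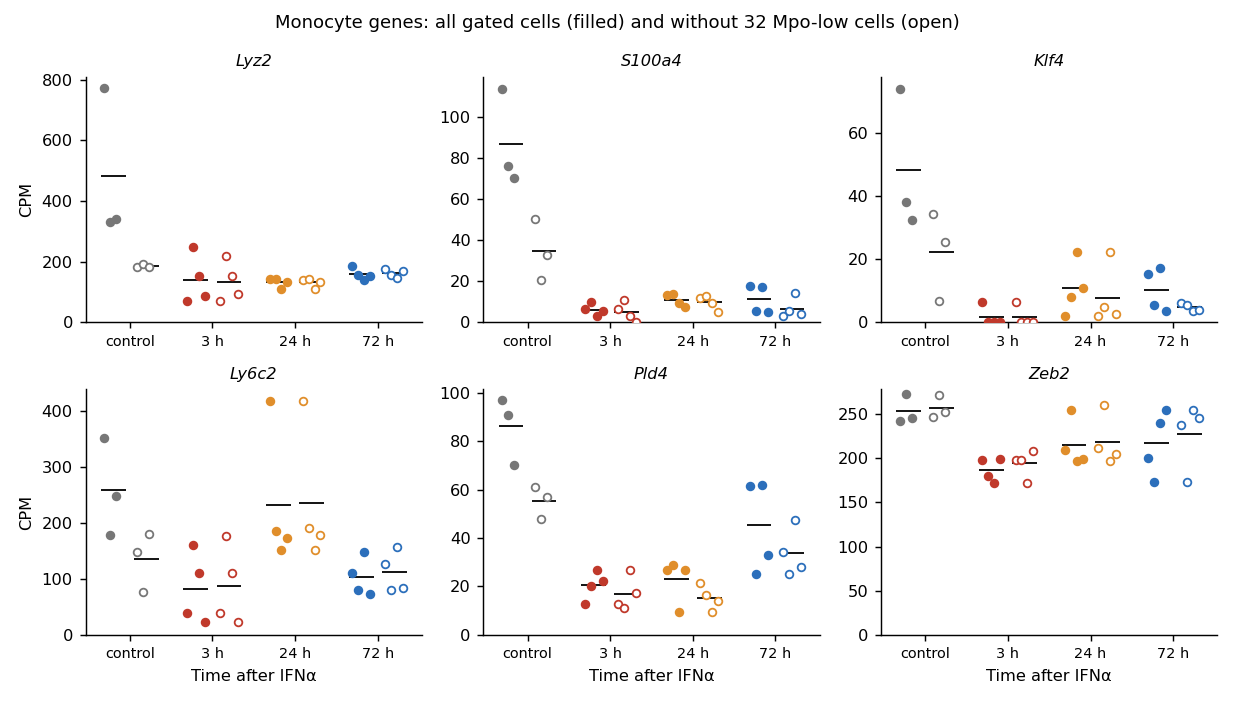
CPM of all UMIs per mouse for Lyz2, S100a4, Klf4, Ly6c2, Pld4 and Zeb2, with filled points for all gated cells, open points without the 32 Mpo-low cells and a line at each mean. The control mean of Lyz2 goes from 481 to 187 CPM and that of Ly6c2 from 260 to 135 CPM without these cells, while the control mean of Pld4, 55.3 CPM without them, stays above the 3 h and 24 h means of 17.0 and 15.3 CPM.

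Other genes of the monocyte program were not called. Zeb2, a factor that stabilises the monocyte state, had means of 244 ± 17.1, 193 ± 13.2, 211 ± 25.7 and 221 ± 37.3 CPM. Spi1, the master factor PU.1, had 324, 250, 282 and 285 CPM, Cebpa 65.4, 40.9, 53.5 and 50.9 CPM and Cx3cr1 31.1, 14.6, 23.3 and 26.4 CPM. Ms4a6c went from 751, 468 and 611 to 901, 1176, 1116 and 1151 CPM at 3 h, above the control in each mouse (1.79-fold, adjusted p = 0.000139) but under the fold limit, and overlapped with it later. Mpo had means of 1903, 1685, 2168 and 2174 CPM, and none of 8 tested neutrophil granule genes was called, although Igsf6 was lower at 3 h without the Mpo-low cells (log2 fold change -1.38, adjusted p = 0.0366, against -1.24 and 0.0610) and Ms4a3 higher at 24 h without the class II-high cells alone (1.20, adjusted p = 0.0266). Of 16 myeloid transcription factors 2 rose and 2, Klf4 and Klf2, fell at 3 h, beside 3.64% and 2.26% of all tested genes. Myc, a driver of growth, went from 104, 110 and 149 to 346, 375, 327 and 303 CPM (2.72-fold, adjusted p = 4.29e-06) and Cebpb, a factor of emergency myelopoiesis, from 114, 100 and 162 to 359, 193, 290 and 315 CPM (2.35-fold, adjusted p = 4.13e-05), both without overlap and both with the Mpo-low cells left out. Klf2 fell on 68 UMIs against 3 (ratio 0.127, counting interval 0.0255 to 0.387) and lost its call without control mouse 2 (adjusted p = 0.162) or without 3 h mouse 1, 2 or 3 (0.101, 0.0682 and 0.177), and it had too few counts to be tested without the Mpo-low cells.

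Lysosomal and glycolytic genes were called for a few members, to be read against all tested genes. There 2.26%, 0.615% and 0.284% were called lower in time order, and 3.64% and 0.52% higher at 3 h and 24 h. Of 20 tested phagocyte and lysosome genes Ctsh, Lyz2 and Grn fell at 3 h. The protease gene Ctsh went from 184, 120 and 73.8 to 6.53, 40.6, 9.35 and 40.1 CPM (0.162 of the control, adjusted p = 9.86e-05), called also without the Mpo-low cells. At 24 h Ctsh had 57.2 ± 6.05 CPM, a call lost without them (adjusted p = 0.173) or without control mouse 1 (0.174). Grn, progranulin, lost its 3 h call without control mouse 1 or 3 or 3 h mouse 1, 3 or 4 (0.0525 to 0.132). Cybb, the oxidase subunit, was called lower at 72 h on 5 UMIs against 50 and lost the call without the Mpo-low cells (adjusted p = 0.804), without control mouse 1 (0.169) or without 72 h mouse 2 (0.0638). Of 14 glycolysis genes Pgk1, phosphoglycerate kinase, went from 26.4, 24.1 and 21.1 to 71.8, 122, 109 and 115 CPM at 3 h and 80.0, 62.0, 59.9 and 42.2 CPM at 24 h (4.40-fold and 2.50-fold), and Hk2, hexokinase, rose 3.68-fold at 3 h. The remaining glycolysis genes were not called, and the list medians were 0.05, 0.27 and 0.15.

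Cell cycle genes were counted by phase. Of 26 G2/M genes 16 fell at 3 h (median log2 fold change -1.38), 9 fell at 24 h (-0.88) and none was called at 72 h (-0.67), against 2.26%, 0.615% and 0.284% of all tested genes called lower. Of 28 S phase genes 1, the thymidine kinase Tk1, was called at 3 h and none later, with medians of -0.03, 0.04 and 0.04. After leaving out the Mpo-low cells the G2/M calls were 16, 10 and 2. Ube2c, the conjugating enzyme of the anaphase-promoting complex, had 328, 652 and 245 CPM in the control, 65.3, 0, 12.5 and 115 CPM at 3 h, 16.4, 91.3, 148 and 144 CPM at 24 h (0.112 and 0.244 of the control, adjusted p = 9.30e-05 and 0.000517). The 3 h call was lost with the gate on thinned cells (adjusted p = 0.228) and the 24 h call with DESeq2 (0.180). Its log2 fold changes stayed at -2.25 or lower at 3 h and -1.54 or lower at 24 h in all alternatives. Mki67, the antigen Ki-67 of cycling cells, had 177, 286 and 166 CPM in the control, 52.2, 10.14, 15.6 and 109 CPM at 3 h, 72.7, 63.1, 41.0 and 104 CPM at 24 h, and 132, 106, 137 and 68.3 CPM at 72 h. Its fold changes were 0.211, 0.361 and 0.500 of the control, and the last, though each mouse lay below the control, did not pass the fold limit (adjusted p = 0.0362), which it did without control mouse 1 or 3 or 72 h mouse 1 or 3 (log2 fold change -1.12 to -1.06). Hmmr, a spindle protein (0.159), the mitotic kinase Plk1 (0.185) and Sgol2a, a guardian of centromeres (0.147), fell at 3 h as well. At 24 h the spindle protein Nusap1 fell (0.352) but lost its call without control mouse 2 (adjusted p = 0.117), and so did Tk1 at 3 h without control mouse 3 (log2 fold change -0.94) or 3 h mouse 3 (adjusted p = 0.0714).

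Some immediate-early genes, which also respond to the handling of cells, fell. The share of all tested genes called lower was 2.26%, 0.615% and 0.284% in time order. Fosb had 45.4, 77.8 and 61.9 CPM in the control, 6.53, 10.14, 9.35 and 28.6 CPM at 3 h, 7.27, 11.3, 6.31 and 14.5 CPM at 24 h and 5.28, 21.9, 28.2 and 36.8 CPM at 72 h, below each control mouse throughout (0.216, 0.175 and 0.390 of the control). Of 14 tested genes of this kind Fos, Fosb, Jund and Zfp36 fell at 3 h, Fos and Fosb at 24 h and Fosb at 72 h, and the list summed to 2144, 1980, 1786 and 1988 CPM with Hsp90aa1 as the most abundant gene. The part of handling in these differences was not tested. The calls of Fos at 3 h (adjusted p = 0.0261) were lost without control mouse 2 or 3 or 3 h mouse 1, 2 or 3 (0.0532 to 0.225), those of Fos at 24 h without control mouse 2 or 3 or 24 h mouse 1 or 2 (0.0546 to 0.0891), Zfp36 without control mouse 2 or 3 h mouse 1 or 3 (0.0648 to 0.0930) or without the Mpo-low cells (0.111), Jund without control mouse 2 or 3 or 3 h mouse 1 or 3 (log2 fold change -0.98 to -0.94), and Fosb at 72 h without control mouse 2 (0.104) or 72 h mouse 2 (0.0503). Tsc22d3, a target of glucocorticoids, fell at 3 h on 80 UMIs against 3 (ratio 0.108, counting interval 0.0218 to 0.327), and Btg2, an inhibitor of proliferation, fell from 27.8, 48.1 and 77.8 to 19.6, 20.3, 0 and 5.73 CPM, a call lost without 3 h mouse 3 (adjusted p = 0.0667).

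At 24 h the 8 largest rises that separated all mice were Rtp4, Ly6a, Ifi27l2a, Isg15, Irf7, Hist1h2ap, Gm10076 and H2-Q7. Ifi27l2a, a mitochondrial ISG, had 54.2, 34.0 and 79.1 CPM in the control and 469, 412, 498 and 374 CPM at 24 h (7.50-fold, adjusted p = 6.59e-10). At 3 h it had 26.1, 0, 65.4 and 74.4 CPM and was not called. Rtp4 stood at 34.7 to 36.4 CPM in the 4 mice of 24 h against 3 UMIs in the control (ratio 25.8, counting interval 8.56 to 127). All 8 of these rises were called without the Mpo-low cells, and Hist1h2ap lost its call without control mouse 1 (0.0640) or 24 h mouse 4 (0.0784). Of the 8 largest falls at 24 h (S100a4, Fosb, Lgals3, Ahnak, Klf4, Ube2c, Lyz2 and Pld4) 4 were. Ahnak, a scaffold protein, went from 79.1, 87.7 and 40.9 to 21.8, 13.5, 3.15 and 12.1 CPM with all cells, and without the Mpo-low cells the adjusted p was 0.320. Lgals3 could not be tested without them, as few of its counts were left, and lost its 24 h call without control mouse 2 (0.0979) or 24 h mouse 2 (0.0772).

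At 72 h no listed ISG was among the called rises. The 8 largest that separated all mice were Gm10020, Hist1h2ap, Gm8186, Rpl35, Polr2l, Gm10076, Lsm7 and Gm2000. Rpl35 (chr2:39001580-39005624, minus strand), a protein of the large ribosomal subunit, had 583, 684 and 710 CPM in the control and 2481, 2597, 2568 and 2467 CPM at 72 h, a 3.82-fold rise with very little spread (adjusted p = 3.41e-17). Rpl35 was also above the control at the earlier times, with 3416, 3589, 3559 and 3321 CPM at 3 h and 1400, 1470, 1536 and 1492 CPM at 24 h (log2 fold changes 2.40, 1.16 and 1.94 in time order, called at each time). Lsm7 of the U6 RNA ring rose 3.41-fold, Polr2l, a small subunit of RNA polymerases, 3.79-fold, and the histone gene Hist1h2ap 5.37-fold. In time order the log2 fold changes of Lsm7 were 2.50, 1.34 and 1.79, of Polr2l 2.59, 1.10 and 1.91, of Hist1h2ap 3.17, 2.20 and 2.47, of Gm10020 2.17, 1.55 and 2.72 and of Gm10076 1.80, 2.10 and 1.83, all called. Gm8186 was called at 3 h and 72 h (1.63 and 1.97) and Gm2000 at 72 h. The log2 fold change of Rpl35 at 72 h was 1.94 in the gated cells, 1.92 in the Elane-high progenitors and 1.87 in the Flt3 and Mpo positive progenitors, and that of Gm10020 was 2.72, 2.26 and 1.81. The 3 comparisons share 1 control library and each time point is 1 library, so for these genes a difference of the control library, of the treated libraries or of the mice cannot be told apart, and Gm10020, Gm10076, Gm8186 and Gm2000 bear names of gene models that often copy other genes. Gm2000 lost its call in 9 of the fits that left out 1 mouse (adjusted p = 0.0542 to 0.244) and without the Mpo-low cells (0.0863).

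Among the 8 largest falls at 72 h (S100a4, Klf4, Nme2, S100a6, Nutf2, Lyz2, Kpna2 and Asb8) Nme2, a nucleoside diphosphate kinase, went from 87.8, 70.8 and 81.7 to 34.3, 20.1, 28.2 and 15.8 CPM (0.287 of the control). Nutf2, which carries Ran into the nucleus, went from 65.9, 42.5 and 58.0 to 15.9, 12.8, 31.7 and 19.3 CPM (0.334 of the control). Their log2 fold changes of -1.78 and -1.56 stood beside -1.58 and -1.54 in the Elane-high progenitors. Asb8, a substrate adaptor of ubiquitin ligases, went from 30.7, 39.6 and 35.6 to 13.2, 14.6, 14.1 and 10.5 CPM (log2 fold change -1.43), beside -0.03 and -0.01 in the 2 other populations, yet the tests of these differences did not pass (adjusted p = 0.143 and 0.675), and its call was lost without control mouse 2 (0.0732) or 72 h mouse 4 (0.0678). Kpna2, an importin, was 0.360 of the control and lost its call without control mouse 2 (0.0522). S100a6 had 0.309 of the control with all cells and no call without the Mpo-low cells (0.597), without control mouse 1 (0.154) or without 72 h mouse 2 (0.0733).

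The response was then compared, within the same mice, with that of the 2 populations nearest to the gated cells. The Elane-high progenitors were defined by Elane and the absence of Dntt alone. Of the 2174, 997 also had 3 or more of the 5 monocyte genes of the gate, so they are not a population without the monocyte program. Against the 2174 Elane-high progenitors the response differed for 5 of 8492 genes at 3 h (0.0589%, 1 higher and 4 lower), 13 at 24 h (0.153%, of which 0.0236% higher and 0.13% lower) and 1 at 72 h (0.0118%). The 5 at 3 h were Crip1, Gm2a, Ifi203, Ifi27l2a and Mt1, of which 1, the metallothionein gene Mt1, was also called without the Mpo-low cells. Of the other 4, Gm2a (-1.11 with and -0.92 without these cells, adjusted p = 0.0452) and Ifi203 (-1.13 and -0.80, adjusted p = 0.0162) still passed the test and missed only the fold limit, while Crip1 went from -1.48 to -0.47 and Ifi27l2a from -1.79 to -0.85. Mt1 had 37.0 ± 5.25 and 108 ± 79.9 CPM in the gated cells and 217 ± 15.6 and 243 ± 52.3 CPM in the Elane-high progenitors (difference of log2 fold changes 1.42 ± 0.31, adjusted p = 0.0261). At 24 h 3 of the 13 were also called without the Mpo-low cells, the asparagine synthetase gene Asns (2.65 ± 0.58; 3.68 ± 3.55 to 23.8 ± 26.2 CPM in the gated cells, where it was too low to be tested by itself and entered through the other population alone, and 17.3 to 17.4 CPM in the Elane-high progenitors), Ms4a3 of granulocyte and monocyte progenitors (1.64 ± 0.31; 23.2 to 57.5 CPM in the gated cells, 1275 to 980 CPM in the Elane-high progenitors) and Fosb (-1.69 ± 0.37). The gene at 72 h was Lyz2 (-1.03 ± 0.16), which was not called without the Mpo-low cells. Crip1, Gm2a, Ifi203, Mt1, Asns, Ms4a3 and Igsf6 fall outside the rule for named genes and were named after their values were seen, as were H1fx and Pim1 below. The leading ISGs were not called different, at 3 h with -0.48 ± 0.35 for Isg15 (adjusted p = 0.791), -1.38 ± 0.56 for Irf7 (0.438) and 0.60 ± 0.64 for Ly6a (0.882), and Csf2rb was 1.47 ± 0.35 above (0.0581).

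Against the 684 Flt3 and Mpo positive progenitors the response differed for 34 of 7510 genes at 3 h (0.453%, of which 0.0932% higher and 0.36% lower), 13 at 24 h (0.173%) and 3 at 72 h (0.0399%, of which 0.0133% higher and 0.0266% lower), and 17, 3 and 0 of these were also called without the Mpo-low cells. Of the 17 calls lost at 3 h 11 kept a difference over the fold limit, and the median difference was 0.874 of that with all gated cells (range 0.200 to 1.001). At 24 h 4 of 9 lost calls and at 72 h 2 of 3 were over the fold limit (medians 0.341 and 0.866). Ms4a6c went from 627 ± 144 to 1092 ± 119 CPM in the gated cells and from 59.9 ± 10.3 to 553 ± 51.7 CPM in the other population, a difference of -2.42 ± 0.21 (adjusted p = 8.22e-11). Ctss stood at 152 ± 23.7 and 117 ± 27.2 CPM in the gated cells and at 10.5 ± 7.45 and 65.6 ± 37.0 CPM in the other (-2.94 ± 0.42, adjusted p = 1.66e-05). Without the Mpo-low cells both were called, with differences of -2.25 and -2.55. Differences in the other direction were fewer, 7 of the 34. Myc rose more in the gated cells (1.15 ± 0.24), as did Pim1, a kinase downstream of cytokine receptors (91.3 to 546 CPM, against 335 to 771 CPM, 1.39 ± 0.19), and Rtp4 (3.29 ± 0.62), whose control level in the gated cells rests on 3 UMIs. Ube2c fell in the gated cells and stood at 108 and 139 CPM in the other population (-3.25 ± 0.54 at 3 h and -2.29 ± 0.35 at 24 h). At 24 h Ctss (-2.17 ± 0.35) and Ms4a6c (-1.51 ± 0.20) were the other genes called both with all gated cells and without the Mpo-low ones. At 72 h the called genes were H1fx (1.31), Lyz2 (-1.43) and S100a4 (-3.25), whose differences without the Mpo-low cells were 1.13, -0.11 and -2.82 and not called. In the Flt3 and Mpo positive progenitors S100a4 was too low to be tested by itself (7.42 CPM in the control and 23.6, 7.83 and 10.4 CPM in time order), and it entered this comparison through the gated cells, where it is high.

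**Figure D5:**
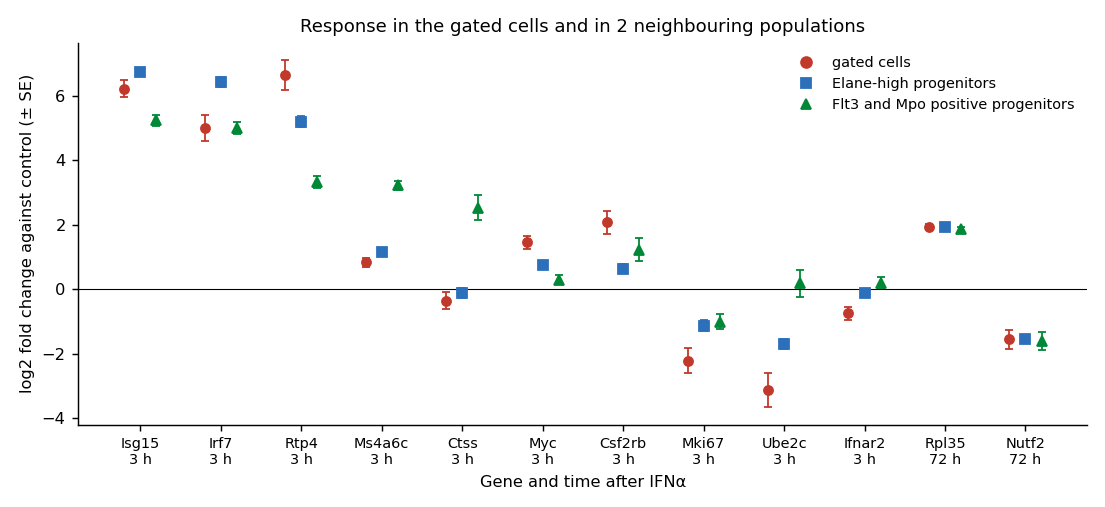
Log2 fold change from the control (± SE of the fit) for 12 pairs of gene and time point in the gated cells, the Elane-high progenitors and the Flt3 and Mpo positive progenitors, summed per mouse. For Ms4a6c at 3 h the Flt3 and Mpo positive progenitors lie far above the gated cells at 0.83, and for Rpl35 at 72 h all 3 lie between 1.87 and 1.94.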

How the data were processed

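Reads were mapped by the authors to the mm10 genome in Cell Ranger 3.1.0, and Seurat was used to assign cells to mice by hashtags (submitters' processing notes and the study's methods), and deposited raw UMI counts per gene and cell with a hashtag call per barcode. Barcodes called as multiplets or without a hashtag were left out, which is how doublets were treated. Gated cells were summed per mouse and compared with edgeR 4.0.16 (quasi-likelihood test, TMM, filterByExpr, Benjamini-Hochberg over 6341 genes) in R 4.3.3. All 15 mice with at least 10 gated cells, or 5 at 3 h, entered 1 fit, and the 7 gate genes stayed out. Differences between populations were interaction terms with the mouse as a block. Replicates are mice. The SE is the log2 fold change divided by the root of F. Named genes are the 8 largest rises and falls per time point with at least 30 CPM and separate groups, 32 panel genes (1 of them not reported here), the gate genes, and, of 26 lists, up to 4 called genes where a list had any. Members, lists and panel were chosen with earlier results of these data known. DESeq2 1.42.0 was an alternative. Gene positions are from GENCODE vM21. The script was tested on simulated data.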

Additional observations from a re-analysis of the deposited data

Results flagged for a closer look

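Of 141 groups of 4 mice, 13 held a mouse far from the others by Dixon's criterion, where chance gives about 5% of the groups. At 3 h these were Gm4951 in mouse 2 (122 CPM, others 43.6 to 51.5), Klf4 in mouse 1 (6.53, others 0), Sgol2a in mouse 2 (0, others 5.73 to 6.53), Cebpa in mouse 4 (17.2, others 45.7 to 50.7), Gsdmd in mouse 3 (65.4, others 39.2 to 40.6) and Tlr7 in mouse 2 (10.14, others 0). At 24 h they were Rtp4 in mouse 3 (34.7, others 36.1 to 36.4), Hist1h2ap in mouse 4 (176, others 84.6 to 94.5), Pld4 in mouse 3 (9.46, others 25.4 to 28.2), Ly6c2 in mouse 1 (399.9, others 151 to 182), Zeb2 in mouse 2 (249, others 196 to 200) and Ctss in mouse 2 (85.7, others 124 to 129), and at 72 h Irf7 in mouse 1 (7.93, others 0). Of these, Klf4, Sgol2a, Tlr7 and Irf7 rest on few UMIs. The criterion weighs a gap against the range of the 4 mice, so it also flagged Rtp4, whose values lie close together. Where all other mice have 0, any count is flagged.

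Some responses differed from those of the neighbouring progenitors by the interaction term (differences of log2 fold changes, edgeR). From the Elane-high progenitors these were Cd74 (-2.08), Fosb (-1.69), Ifi27l2a (-1.09), Lyz2 (-1.27) and S100a4 (-2.12) at 24 h and Lyz2 (-1.03) at 72 h. From the Flt3 and Mpo positive progenitors they were Ctss (-2.94), Grn (-2.11), Lyz2 (-1.60), Ms4a6c (-2.42), Myc (1.15), Rtp4 (3.29), S100a4 (-5.06) and Ube2c (-3.25) at 3 h, Cd74 (-4.75), Ctss (-2.17), Lyz2 (-1.68), Ms4a6c (-1.51), Plk1 (-1.82), S100a4 (-2.97) and Ube2c (-2.29) at 24 h, and Lyz2 (-1.43) and S100a4 (-3.25) at 72 h. Without the Mpo-low cells those of Lyz2 (all times), Ifi27l2a, S100a4 at 24 h and 72 h, Plk1 and Cd74 at 24 h were no longer called, that of Cd74 against the Elane-high progenitors because it could not be tested, while S100a4 at 72 h (-2.82) and Plk1 (-1.84) had differences of similar size. Cd74 in the Elane-high progenitors (2.14 CPM in the control and 2.55 CPM at 24 h) and S100a4 in the Flt3 and Mpo positive progenitors (7.42 CPM in the control) were too low to be tested by themselves and entered through the gated cells, where they are high. The part of cells that pass between the gated set and these populations as gate genes move was not tested.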

How the results depend on the processing

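The 99 named values that were called were compared with alternatives 2760 times, and 2522 of these kept the call and its direction, 238 lost the call and none changed sign. The 73 named values that were not called gained a call in 39 of 2051 comparisons and had the other sign, uncalled, in 68, which concerned 28 of the 73. The cause was not tested for the changes below. The count of called genes (374, 72 and 46 at 3, 24 and 72 h) became 243 at 3 h and 70 at 72 h with 4 of 5 gate genes, 79 at 3 h and 38 at 24 h with the gate on cells thinned to 5000 UMIs, 137 and 71 at 24 and 72 h with no filter on low counts, 47 and 29 there with DESeq2, and 112 at 72 h with at least 20 cells of a mouse (not possible at 3 h). Leaving out 1 mouse gave 278 to 384, 42 to 93 and 31 to 65, the 42 being without control mouse 2.

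The differences from the Elane-high progenitors (5, 13 and 1) became 27, 23 and 6 with the likelihood ratio test, 34, 27 and 7 with no filter, 14 and 10 at 3 and 72 h with 4 of 5 gate genes, 28 and 12 there with thinned cells, 9 and 7 there without class II-high cells, 3, 5 and 0 without class II-high and Lgals3-high cells and likewise 3, 5 and 0 without Mpo-low cells. At 24 h they were 7 with the gate without Irf8 and Csf1r and 5 without the 5% of cells with the most UMIs, and at 72 h 31 with at least 20 cells. Leaving out 1 mouse gave 2 to 23, 5 to 16 and 0 to 6, with moves of over 1.5 times at 3 h without control mouse 2 (3) or 3 (18) or 3 h mouse 1 (2), 3 (2) or 4 (23), at 24 h without control mouse 2 (7) or 24 h mouse 2 (5) or 3 (7), and at 72 h without control mouse 2 (2) or 3 (4) or 72 h mouse 1 (6) or 3 (0). Those from the Flt3 and Mpo positive progenitors (34, 13 and 3) became 74, 26 and 5 with the likelihood ratio test, 68, 42 and 11 with no filter, 10 at 3 h with thinned cells, 20 and 6 at 24 and 72 h with 4 of 5 genes, 25 and 21 there with at least 20 cells, 17, 8 and 0 without class II-high and Lgals3-high cells and 17, 6 and 0 without Mpo-low cells. Leaving out 1 mouse gave 18 to 41, 7 to 33 and 0 to 5, with such moves at 3 h without control mouse 1 (18) or 3 h mouse 1 (20), at 24 h without control mouse 1 (8), 2 (8) or 3 (33) or 24 h mouse 4 (7), and at 72 h without control mouse 1 (0) or 3 (5) or 72 h mouse 1 (5) or 2 (1).

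The share of kept cells in the gate, 3 h over control, was 0.429 with 4 of 5 genes, 0.565 with thinned cells and 0.818 without Hlf and Procr cells in the total, and leaving out 1 mouse gave 0.656 to 0.722, 0.631 to 0.764 and 0.724 to 0.962 in time order. With the hashtag number as a replicate block the called genes 3 h against control were 349, and those of 24 and 72 h were 81 and 48. The numbers did not pair the mice, since deviations of mice with the same number correlated with r between -0.129 and 0.105 (median over 21 pairs -0.00259).

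Few cells per mouse, 7 to 16 at 3 h, and 1 library per time point limit what these data can show. The definitions of class II-high, Lgals3-high and Mpo-low cells were added after the data were seen.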
